A study of Rattus norvegicus with 6 samples.

Results

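The erythroid miRNAs miR-486, miR-451 and miR-144 were measured in circulating exosomes, the small membrane vesicles that cells release into blood. They were chosen by name, and 5 of the 867 miRNA sequences listed in the count table are rat miRNAs of this group: miR-486, miR-451-5p, miR-451-3p, miR-144-3p and miR-144-5p. All 5 had reads in every library. The exosomes came from the serum of male Sprague-Dawley (SD) rats aged 6 to 8 weeks on a normal diet. NXT-Exo (5 libraries, replicates 1 to 5) were from rats gavaged with 1000 mg/kg/d of Naoxintong Capsule (NXT), a commercial Chinese polyherbal preparation, and Ctl-Exo (1 library, replicate 5) from rats gavaged with saline at 5 mL/kg/d. By the sample titles all rats were dosed for 7 days, although a treatment field counts up from 7 to 11 days over NXT-Exo 1 to 5 and has 11 days for the saline library. No disease model is named for these rats. The labels do not say which or how many rats went into each library. The paper describes the ultracentrifugation of a total volume of serum and the storage of exosomes in aliquots. It does not say whether the libraries came from separate rats or from pooled serum. The number n below therefore counts libraries and not rats, and the spread between libraries may be partly or wholly technical.

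miR-144 and miR-451 are cut from a single transcript that the transcription factor GATA1 switches on in red cell precursors. Most miRNAs are cut from their hairpin by Dicer, whereas the miR-451 hairpin is too short for Dicer and is sliced by Ago2 and then trimmed to its mature end. miR-451 protects red cells from oxidative stress by repressing Ywhaz (14-3-3 zeta), miR-144 acts in the same antioxidant programme, and miR-486 is abundant in red cells and muscle and represses Foxo1. All are abundant in red cells, and their levels in serum or plasma are commonly read as an index of red cell content.

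The mature sequences of the cluster of miR-144 and miR-451 are shown because the results below turn on which arm of a hairpin and which 3′ end the reads had. They are given 5′ to 3′ as DNA, as the authors listed them, with the seed (bases 2 to 8, which pair with targets) in capitals.
rno-miR-144-5p: gGATATCAtcatatactgtaagt
rno-miR-144-3p: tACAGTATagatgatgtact
rno-miR-451-5p: aAACCGTTaccattactgagtt
rno-miR-451-3p: aTGGTAATggttctcttgctgct
miR-451-x: aAACCGTTaccattactgagtttt
The last of these is not a member but a separately listed form of miR-451-5p with 2 further bases at its 3′ end. The 4 members of the cluster equal the mature sequences of RefSeq. No 2 of the 5 members share a seed. GC content was 30.0% for miR-144-3p, 30.4% for miR-144-5p, 36.4% for miR-451-5p and 43.5% for miR-451-3p, against 63.6% for miR-486 (22 bases).

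The hairpins of both cluster genes lie on the plus strand of chromosome 10 (RefSeq, assembly GRCr8), with 89 bases between them and the genes Flot2 and Eral1 on either side. Mir144 is at chr10:63459397-63459479 and Mir451a at chr10:63459569-63459640. They are printed as RNA with the mature sequences in capitals, to show how differently the mature arms sit around the loop.
Mir144: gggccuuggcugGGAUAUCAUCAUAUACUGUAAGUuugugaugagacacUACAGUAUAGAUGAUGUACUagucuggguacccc
Mir451a: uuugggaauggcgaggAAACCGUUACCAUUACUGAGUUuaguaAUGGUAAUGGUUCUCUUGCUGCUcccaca
Mir144 has 83 bases and Mir451a 72 bases. In folds predicted with RNAfold, 14 hairpin bases separated miR-144-5p from miR-144-3p and neither arm entered the loop. In Mir451a 5 bases separated the arms, and the last 4 bases of miR-451-5p formed the whole terminal loop. Of the 22 bases of miR-451-5p 17 were paired, of the 23 bases of miR-451-3p 21, of the 23 bases of miR-144-5p 20 and of the 20 bases of miR-144-3p 19.

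**Figure D1:**
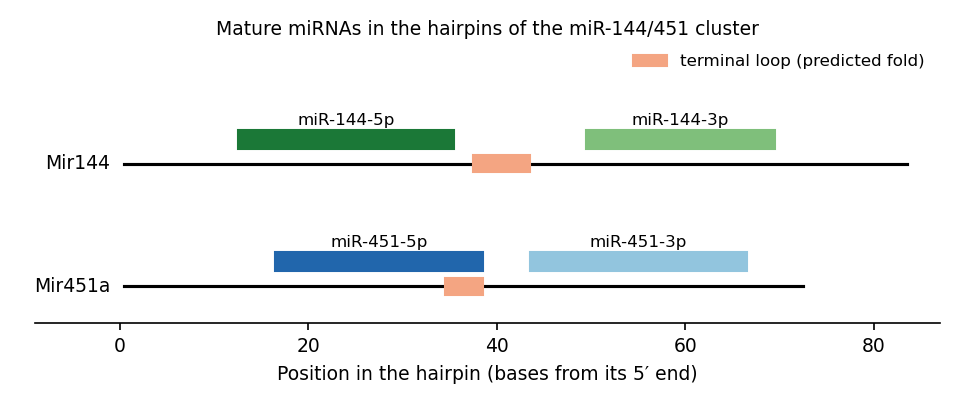
Position of the mature miRNAs (coloured bars) along the Mir144 and Mir451a hairpins (black lines), in bases from the 5′ end of each hairpin, with the predicted terminal loop in orange. The bar of miR-451-5p spans positions 17 to 38 and covers the loop at 35 to 38, whereas miR-144-5p (13 to 35) ends before the loop at 38 to 43.

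The deposited counts of reads on listed miRNAs summed to between 1168686 and 3781718 in the NXT-Exo libraries and to 1890463 in Ctl-Exo 5. Levels below are CPM, the reads of a miRNA per 1e+06 listed reads, scaled between libraries with TMM factors of 0.932 to 1.09. A read covers a whole mature miRNA of 20 to 24 bases, so no division by length was needed, but the adapter ligation of small RNA kits favours some sequences and levels of different miRNAs are not molar. NXT-Exo 1 stood apart from the other libraries in miR-122-5p, the main miRNA of liver cells, at 17384 CPM against 3294 to 6430 CPM in NXT-Exo 2 to 5 and 2195 CPM in Ctl-Exo 5, and the differences of the members are therefore also given without it. Another pair of liver miRNAs, miR-192-5p and miR-194-5p, was highest in NXT-Exo 4 (8523 and 62.5 CPM). miRNAs of white cells, platelets and endothelium were present in every library, at a summed 24738 to 28604 CPM in NXT-Exo, with 30261 CPM in the saline library, over 7 miRNAs, and 4 muscle miRNAs summed to 95.4 to 156 CPM and 114 CPM.

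miR-486 was the most abundant listed miRNA in 5 of 6 libraries and stood at rank 2 in NXT-Exo 1. Its reads numbered 467093, 767365, 571936, 255916 and 814859 in NXT-Exo 1 to 5 and 381163 in Ctl-Exo 5, which was 16.1%, 22.3%, 24.0%, 21.9% and 21.5% of the listed reads and 20.2% in Ctl-Exo 5. Its level was 155726, 231115, 257143, 200055 and 212524 CPM in NXT-Exo 1 to 5 and 207541 CPM in Ctl-Exo 5. The saline library lay inside the NXT-Exo range, with 3 NXT-Exo libraries above it and 2 below. The NXT-Exo mean was 211313 ± 37784 CPM (SD, n = 5), and the log2 difference from Ctl-Exo 5 was 0.03, below the SD of 0.27 of the NXT-Exo log2 levels.

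miR-451-5p, the arm of miR-451 that represses targets, was the next most abundant member. Its level was 1632, 2280, 2266, 3239 and 1972 CPM in NXT-Exo 1 to 5 and 2201 CPM in Ctl-Exo 5, with 4042 to 7570 reads per library. NXT-Exo 4 was the highest library and NXT-Exo 1 the lowest, and Ctl-Exo 5 again lay inside the range. The mean of 2278 ± 599 CPM (SD, n = 5) gave a log2 difference of 0.05 from Ctl-Exo 5, against an SD of 0.36. miR-451-5p ranked between 40 and 58 among the listed miRNAs.

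miR-144-5p was measured at 219.7, 350.0, 493, 369 and 405 CPM in NXT-Exo 1 to 5 and at 412 CPM in Ctl-Exo 5. One NXT-Exo library (NXT-Exo 3) was above Ctl-Exo 5 and 4 were below, without Ctl-Exo 5 leaving their range. The mean was 367 ± 99.2 CPM (SD, n = 5), a log2 difference of -0.16 with an SD of 0.43. miR-144-3p, the other arm, was at 137, 237, 356, 285 and 256 CPM in NXT-Exo 1 to 5 and at 233 CPM in Ctl-Exo 5. Ctl-Exo 5 was exceeded by 4 NXT-Exo libraries and exceeded 1, the mean was 254 ± 79.4 CPM (SD, n = 5), and the log2 difference was 0.12 with an SD of 0.51.

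miR-451-3p, the arm opposite the one that Ago2 keeps, was the rarest member. It had 32, 67, 41, 32 and 70 reads in NXT-Exo 1 to 5 and 65 reads in Ctl-Exo 5, or 10.7, 20.2, 18.4, 25.0 and 18.3 CPM and 35.4 CPM (Wilson 95% interval 27.8 to 45.1 CPM, which covers counting error only). Ctl-Exo 5 was above all 5 NXT-Exo libraries, although the interval of NXT-Exo 4 reached 35.3 CPM. The NXT-Exo mean of 18.5 ± 5.16 CPM (SD, n = 5) gave a log2 difference of -0.90 from Ctl-Exo 5, larger than the SD of 0.43. The ratio of Ctl-Exo 5 to the mean was 1.87 on the scale of CPM + 1, short of the fold of 2 used to count a miRNA as apart.

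**Figure D2:**
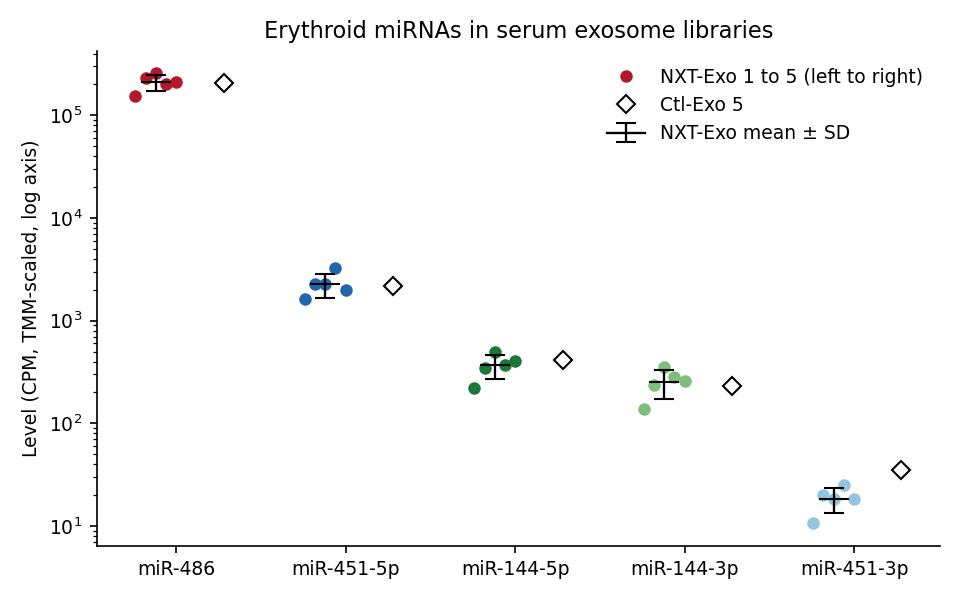
Level of each erythroid miRNA in CPM (log axis) in NXT-Exo 1 to 5 (filled points, left to right) and Ctl-Exo 5 (open diamond), with the NXT-Exo mean ± SD (n = 5) as bars. The diamond lies inside the NXT-Exo points for miR-486, miR-451-5p, miR-144-5p and miR-144-3p, and above them for miR-451-3p (35.4 against 10.7 to 25.0 CPM).

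None of the 5 members was apart by a fold of 2 with Ctl-Exo 5 outside the NXT-Exo range, a rule that called 11.4% of the 865 miRNAs with a read (5.32% higher and 6.13% lower in NXT-Exo) and 6.42% of the 467 miRNAs averaging 10 reads or more, where 22 were higher and 8 lower. With 10 CPM added in place of 1, the rule called 4 of the 865 (3 higher). Ctl-Exo 5 was outside the NXT-Exo range for 1 of 5 members, miR-451-3p, against 30.3% of all miRNAs and 37.5% of the 467. It was above the range for 15.3% of all miRNAs (15.8% of the 467) and below it for 15%, so 1 member in 5 is close to the background. The median log2 difference of the members was 0.03, beside 0.16 over all 865 miRNAs and 0.01 over the 229 miRNAs averaging 100 reads or more. All vesicles of a serum were sequenced together, and CPM is a share of reads and not an amount. In any of these levels, a difference in the number of vesicles of red cell origin could therefore not be told apart from a difference in miRNA per vesicle.

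A fit across all miRNAs was set beside this description, on the assumption that a lone saline library varies as the NXT-Exo libraries do. In the edgeR quasi-likelihood test with Benjamini-Hochberg adjustment, 0 of 595 miRNAs had an adjusted p below 0.05 (0%), 34 (5.71%) had an unadjusted p below 0.05, and DESeq2 and limma also called 0, with 33 and 28 miRNAs below 0.05 unadjusted. The edgeR adjusted p was 0.978 for miR-486, 0.963 for miR-451-5p and for miR-144-3p, 0.946 for miR-144-5p and 0.730 for miR-451-3p, whose unadjusted p was 0.046. The limma 95% intervals of the log2 difference show how large a difference these libraries leave possible. They ran from -0.50 to 0.51 for miR-486 (SE 0.24), from -0.60 to 0.61 for miR-451-5p (SE 0.28), from -0.78 to 0.86 for miR-144-3p (SE 0.38) and from -0.93 to 0.50 for miR-144-5p (SE 0.33). For miR-451-3p the interval, which is not adjusted for the number of miRNAs, was -1.96 to -0.12 (SE 0.43).

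**Figure D3:**
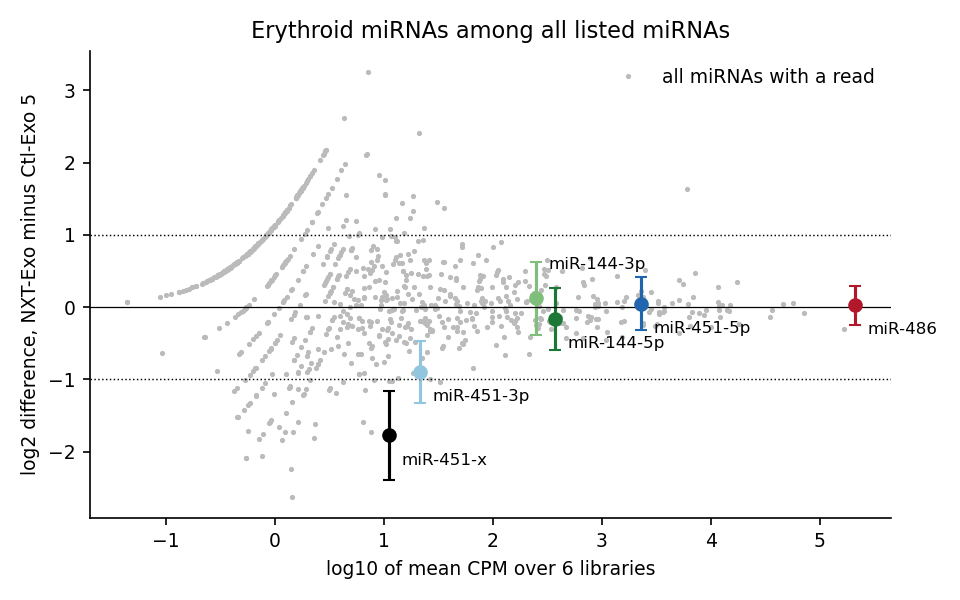
Difference of the mean NXT-Exo level from Ctl-Exo 5 on the log2 scale (vertical axis) against the log10 of the mean CPM over 6 libraries (horizontal axis) for the 865 miRNAs with a read (grey), with the erythroid miRNAs and miR-451-x in colour or black; error bars are ± 1 SD of the NXT-Exo log2 levels (n = 5), and dotted lines mark a fold of 2. miR-486, miR-451-5p, miR-144-5p and miR-144-3p sit within 1 SD of 0, while miR-451-3p (-0.90) and miR-451-x (-1.77) sit below 0 by more than 1 SD.

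The levels kept a fixed order in all 6 libraries, which was miR-486, miR-451-5p, miR-144-5p, miR-144-3p and miR-451-3p from high to low. miR-486 had 61.7 to 113 times the reads of miR-451-5p, and miR-451-5p had 4.59 to 8.77 times those of miR-144-5p. The arms of miR-144 were the only neighbours in this order whose ranges over the libraries overlapped, with miR-144-5p ahead by 1.30 to 1.77 times in each of the 6 libraries. miR-144-3p had 6.54 to 19.1 times the reads of miR-451-3p. Together the 5 members took 16.3% to 24.3% of the listed reads of NXT-Exo libraries, against 20.4% for Ctl-Exo 5, and miR-486 supplied 98.1% to 98.8% of these.

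The members varied more among all 5 NXT-Exo libraries than most miRNAs of sufficient depth, and by less among NXT-Exo 2 to 5, where the SD of miR-486 was below the median. NXT-Exo 1 was the lowest library for all 5 members, so leaving it out favours a smaller SD and does not show that the members vary little. Among the 229 miRNAs that averaged 100 reads or more the median SD of the log2 level was 0.22, with quartiles of 0.16 and 0.30. Of that set, 65.9% had a lower SD than miR-486, 87.8% than miR-451-5p, 93.0% than miR-144-5p and 96.5% than miR-144-3p. miR-451-3p has fewer reads and is not one of the set, so its SD of 0.43 includes more counting error. Without NXT-Exo 1 the SD was 0.16 for miR-486, 0.31 for miR-451-5p, 0.22 for miR-144-5p, 0.25 for miR-144-3p and 0.20 for miR-451-3p, beside a median of 0.20 over the 229 miRNAs, of which 31.0%, 79.9%, 56.3% and 68.1% had a lower SD than the first 4. Over all 6 libraries the highest level was 1.65 times the lowest for miR-486, 1.98 times for miR-451-5p, 2.24 times for miR-144-5p, 2.60 times for miR-144-3p and 3.32 times for miR-451-3p.

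NXT-Exo 1 had the lowest level of the 6 libraries for all 5 members. There miR-486 was 0.42 below its 6-library mean on the log2 scale, miR-451-5p 0.44, miR-144-5p 0.73, miR-144-3p 0.81 and miR-451-3p 0.85 below. miR-23a-3p, the usual denominator of an index of red cell content, was 0.34 above its mean in NXT-Exo 1, and its SD among the NXT-Exo libraries was 0.24. Of 10 other red cell miRNAs 5 (miR-16-5p, miR-25-3p, miR-93-5p, miR-363-3p and miR-15b-5p) were also lowest in NXT-Exo 1 of the 6 libraries. So were 0 of 7 white cell, platelet and endothelial miRNAs, 0 of 3 liver miRNAs and 1 of 4 muscle miRNAs. The share over all listed miRNAs was not counted, so these low levels are not shown to be particular to red cell miRNAs. The sum of the 10 other red cell miRNAs was nevertheless highest in NXT-Exo 1, at 104157 CPM against 84456 to 92741 CPM in NXT-Exo 2 to 5. Of this, miR-92a-3p alone was at 71299 CPM, and without that miRNA the sum was 32859 CPM against 32788 to 39455 CPM. The part of the high miR-122-5p of this library in the low member levels was not tested. Without NXT-Exo 1 the log2 differences from Ctl-Exo 5 were 0.12 for miR-486, 0.15 for miR-451-5p, -0.03 for miR-144-5p, 0.28 for miR-144-3p and -0.76 for miR-451-3p.

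The members did not have a common highest library. miR-486, miR-144-3p and miR-144-5p were highest in NXT-Exo 3, where miR-144-3p was 0.56 and miR-486 0.30 above its mean. miR-451-5p was highest in NXT-Exo 4, at 0.55 above its mean, a library in which miR-486 was 0.06 below. miR-451-5p thus did not peak with miR-144, with which it shares a transcript. As a description over 6 libraries, with no test, Pearson's r (Spearman's rho) of the log2 levels was 0.94 (0.60) between the arms of miR-144, 0.67 (0.60) between miR-451-5p and miR-144-3p, 0.49 (0.14) between miR-451-5p and miR-144-5p, 0.89 (0.60) between miR-486 and miR-144-3p, and 0.42 (0.31) between miR-486 and miR-451-5p. These points share library size scaling, and miR-486 is large enough in share to move the CPM of every other miRNA.

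**Figure D4:**
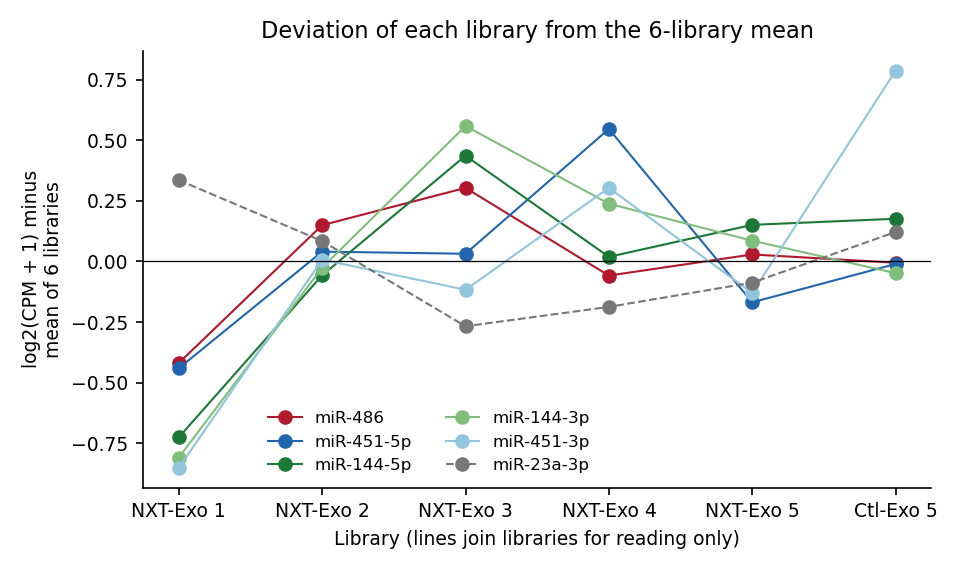
Deviation of each library from the mean of the 6 libraries on the log2(CPM + 1) scale for the erythroid miRNAs (solid lines) and miR-23a-3p (dashed), with libraries along the horizontal axis. All 5 erythroid miRNAs are lowest in NXT-Exo 1 while miR-23a-3p is highest there, miR-451-5p peaks in NXT-Exo 4 (0.55), and miR-451-3p in Ctl-Exo 5.

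Among 228 other miRNAs averaging 100 reads or more, those with a pattern over the 6 libraries most like a member were also described, by Pearson's r (Spearman's rho). For miR-486 they were miR-340-5p with 0.99 (1.00), miR-26a-5p with 0.92 (0.77) and miR-486-x with 0.92 (1.00). For miR-451-5p they were miR-148a-5p with 0.96 (0.89), miR-25-3p with 0.96 (0.77) and let-7i-5p with 0.90 (0.83). let-7f-5p with 0.98 (0.94), let-7d-5p with 0.97 (0.83) and miR-144-5p were the nearest to miR-144-3p. No miRNA was among the 3 nearest of more than 1 of these members. Beyond the first 3, miR-144-5p and miR-144-3p ranked 6 and 7 for likeness to miR-486, and miR-486 ranked 9 and miR-451-5p 38 for likeness to miR-144-3p.

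Ratios of reads inside a library are free of library size and scaling, and they compare the arms of a hairpin directly. For Mir451a the ratio of miR-451-5p to miR-451-3p was 151, 112, 121, 128 and 107 in NXT-Exo 1 to 5 and 61.7 in Ctl-Exo 5. All 5 NXT-Exo libraries were above Ctl-Exo 5, by a mean log2 difference of 0.99 against an SD of 0.19. Expressed as a share of both arms, miR-451-3p was 0.649%, 0.877%, 0.807%, 0.766% and 0.917% in NXT-Exo 1 to 5 and 1.58% in Ctl-Exo 5, whose Wilson 95% interval of 1.24% to 2.01% lay above the upper bounds of all 5 NXT-Exo libraries (highest 1.16%), by counting error only and not by the spread between libraries. Of the 2 levels in this ratio, that of miR-451-5p differed by a log2 of 0.05 and that of miR-451-3p by -0.90.

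For Mir144 the ratio of miR-144-5p to miR-144-3p was 1.60, 1.48, 1.39, 1.30 and 1.58 in NXT-Exo 1 to 5 and 1.77 in Ctl-Exo 5. The 5 NXT-Exo libraries were all below Ctl-Exo 5, by a log2 difference of -0.27 with an SD of 0.13. These ratios were set among all 69 rat hairpins averaging 10 reads or more on both arms, a comparison chosen after the values were seen. Ctl-Exo 5 was outside the NXT-Exo range in 31.9% of the 69, and outside by at least as much as for miR-451 in 10.1% (7 hairpins, miR-451 the least of them). The difference of miR-144 ranked 34 of 69, and the median size was 0.27.

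The ratios between members of different hairpins did not separate the groups. The ratio of miR-451-5p to miR-144-3p was 6.37 to 11.9 in NXT-Exo (median 9.63), with 9.43 in Ctl-Exo 5, and the ratio of miR-451-5p to miR-144-5p 4.59 to 8.77 (median 6.51) and 5.34. miR-486 over miR-451-5p was 95.4, 101, 113, 61.7 and 108 in NXT-Exo 1 to 5 and 94.3 in Ctl-Exo 5, with NXT-Exo 4 the low library. Against miR-23a-3p, miR-451-5p was at 0.0370, 0.0615, 0.0780, 0.105 and 0.0599 in NXT-Exo 1 to 5 and at 0.0578 in Ctl-Exo 5. NXT-Exo 1 had the lowest and NXT-Exo 4 the highest value of this index of red cell content, a range of 2.85 times that enclosed Ctl-Exo 5. The ratio of miR-486 to miR-23a-3p was 3.53 to 8.85 (median 6.45) in NXT-Exo, with 5.45 in Ctl-Exo 5, and that of miR-144-3p 0.0031 to 0.0122 (median 0.0078) and 0.0061.

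**Figure D5:**
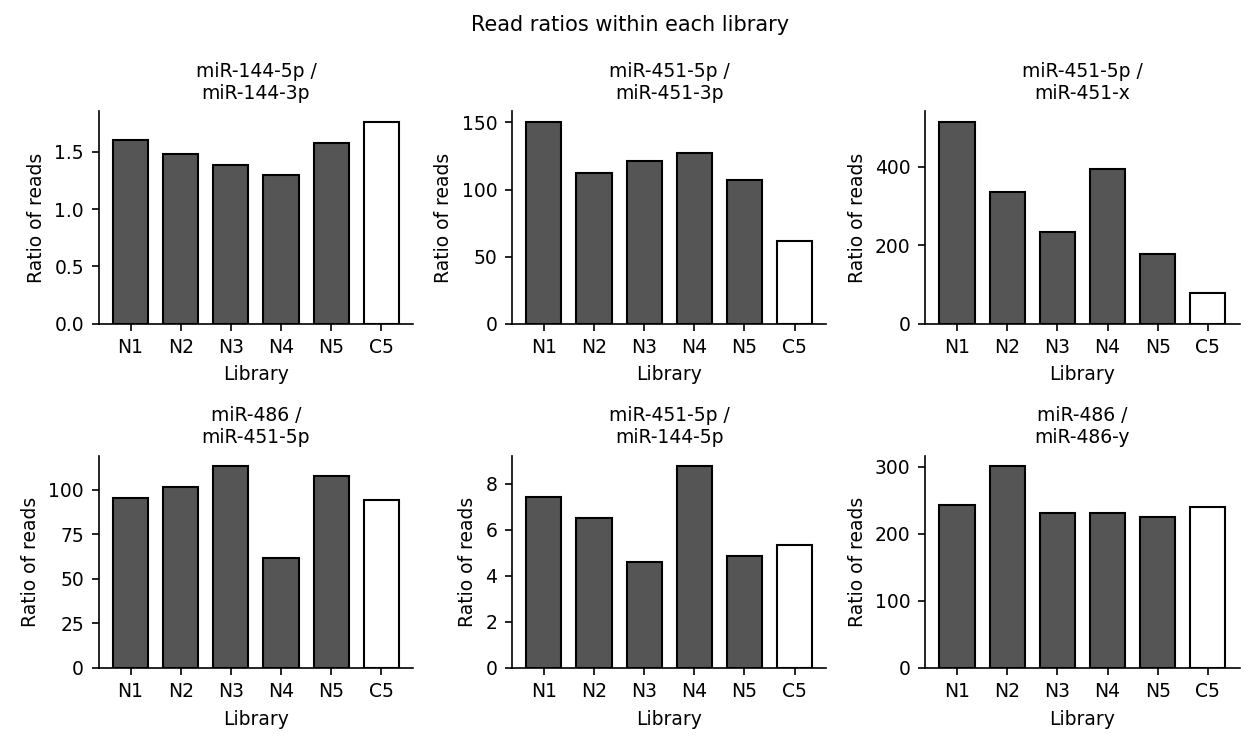
Ratio of reads of a pair of miRNAs inside each library (bars from 0) for NXT-Exo 1 to 5 (N1 to N5, dark) and Ctl-Exo 5 (C5, white), 1 value per library. Ctl-Exo 5 is below all NXT-Exo libraries for miR-451-5p over miR-451-3p (61.7 against 107 to 151) and over miR-451-x (77.0 against 178 to 515), above them for the arms of miR-144 (1.77), and among them in the other 3 panels.

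The table lists 6 further sequences named for the same hairpins, which carry the letter x for the 5p side and y for the 3p side and no rat prefix. miR-451-x, printed above, is miR-451-5p with 2 more bases. Its first 23 of 24 bases match the hairpin, where they run 1 base past the end of miR-451-5p, and the last base does not. It had 9, 22, 21, 10 and 42 reads in NXT-Exo 1 to 5 and 52 in Ctl-Exo 5, or 3.00, 6.63, 9.44, 7.82 and 11.0 CPM and 28.3 CPM. Ctl-Exo 5 was the highest library by more than 2-fold. The NXT-Exo mean was 7.57 ± 3.03 CPM (SD, n = 5), a log2 difference of -1.77 with an SD of 0.61, and -1.59 without NXT-Exo 1.

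miR-451-x was the 1 of these 6 sequences apart by a fold of 2, in a direction (lower in NXT-Exo) that held 6.13% of all miRNAs and 1.71% of the 467 with 10 reads or more on average. In the edgeR fit its unadjusted p was 0.0045 and its adjusted p 0.730, and the limma difference was -2.01 (95% interval -3.15 to -0.88, SE 0.53). As a share of the reads of miR-451-5p and miR-451-x together it was 0.183%, 0.290%, 0.415%, 0.241% and 0.552% in NXT-Exo 1 to 5 and 1.27% in Ctl-Exo 5 (Wilson 95% interval 0.970% to 1.66%). The sequence miR-486-x, by comparison, was a steady share of the reads of miR-486 and miR-486-x together. That share was 3.04%, 3.03%, 2.91%, 2.53% and 2.80% in NXT-Exo 1 to 5 and 2.82% in Ctl-Exo 5. miR-486-x (23 bases) differs from miR-486 at 1 of 22 shared positions, so unlike miR-451-x it is not only a longer form. Its level was 4883 to 7719 CPM in NXT-Exo, against 6018 CPM for Ctl-Exo 5.

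miR-486-y, whose 22 bases hold a run of 20 complementary to miR-486, was at 640, 768, 1118, 869 and 945 CPM in NXT-Exo 1 to 5 and 864 CPM in Ctl-Exo 5. Its log2 difference was 0.01, and that of miR-486-x 0.05. The other 3 sequences were near the limit of detection, taken as 3 reads per library. miR-451-y had 0 reads in 4 NXT-Exo libraries, 5 in NXT-Exo 5 and 1 in Ctl-Exo 5. miR-144-y, which is miR-144-3p with 2 bases that the hairpin does not have, had 2, 0, 8, 0 and 12 reads in NXT-Exo 1 to 5 and 2 in Ctl-Exo 5. miR-144-x, starting 1 base later than miR-144-5p, had at most 4 reads in any library.

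Other red cell miRNAs were taken from a list of 10, in which 2 were higher and 8 lower in the NXT-Exo mean than in Ctl-Exo 5. The median log2 difference of the list was -0.19, and -0.14 without NXT-Exo 1 (1 higher, 9 lower). All 10 averaged 100 reads or more, and the median over the 229 such miRNAs was 0.01, while that over all 865, many with few reads, was 0.16. None of the 10 was apart by a fold of 2, and none passed the edgeR test. Ctl-Exo 5 was above all NXT-Exo libraries for 4 of the 10, namely miR-106b-5p (-0.57), miR-20a-5p (-0.45), miR-16-5p (-0.26) and miR-185-5p (-0.25). The same held for 15.3% of all miRNAs and 15.8% of the 467 averaging 10 reads or more, and the share over the 229 was not counted. The most abundant of the list, miR-92a-3p, was at 47105 to 71299 CPM in NXT-Exo, against 54461 CPM for Ctl-Exo 5, a log2 difference of 0.06, and of -0.03 without NXT-Exo 1. Of the 7 white cell, platelet and endothelial miRNAs 6 were lower in NXT-Exo as well, with a median of -0.24. Beside the same background shares, 3 of the 7 (miR-223-3p, miR-142-5p and miR-146a-5p) were highest in Ctl-Exo 5. The log2 differences of the liver miRNAs were 1.64 for miR-122-5p, 0.47 for miR-192-5p and 0.08 for miR-194-5p, the last with Ctl-Exo 5 inside the NXT-Exo range. Without NXT-Exo 1 that of miR-122-5p was 0.94, below a fold of 2, and that of miR-192-5p 0.50. The 4 muscle miRNAs had a median of -0.13 but were split, with 2 higher and 2 lower in NXT-Exo. The differences were 0.61 for miR-206-3p, 0.46 for miR-133a-3p, -0.71 for miR-1-3p and -0.92 for miR-499-5p. Ctl-Exo 5 was below all NXT-Exo libraries for miR-133a-3p and above all for miR-1-3p.

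The seeds of the members were shared with few other listed sequences. Over bases 2 to 8, miR-486, miR-451-5p, miR-451-3p and miR-144-3p each shared their seed with 1 of 864 other sequences, a form named for the same hairpin, and miR-144-5p with none. Over bases 2 to 7, miR-486 also matched miR-10b-5p, at 3256 to 4160 CPM in NXT-Exo, against 3734 CPM for Ctl-Exo 5. miR-144-3p matched the miR-101 family over the same bases. Of these miR-101a-3p was at 293 to 503 CPM in NXT-Exo, against 436 CPM for Ctl-Exo 5, miR-101b-3p at 232 to 328 CPM and 295 CPM, and miR-101-y at 259 to 390 CPM and 240 CPM, each of the order of miR-144-3p itself (137 to 356 CPM).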

How the data were processed

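Small RNA of serum exosomes was sequenced on an Illumina HiSeq from TruSeq Small RNA libraries. With ACGT101-miR the authors filtered out adapter dimers, reads of low complexity, other RNA classes and repeats, and they deposited read counts per miRNA sequence, which were used here. The submitters' processing notes name the build Rnor_6.0, and the aligner and miRNA database release are not given in the sources used here. The authors also deposited TPM values, each the count times a constant per library with 0.01 written for 0 reads, used only as an alternative. The listed counts were 86.0% to 88.3% of the library totals that these TPM values imply. The same table has 8 columns of counts and TPM under the names of 4 further Ctl-Exo libraries, which match no sample label and were not used, so that every comparison here rests on 1 Ctl-Exo library.

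Groups followed the labels. Levels were compared as the log2 of the mean CPM + 1 of NXT-Exo less that of Ctl-Exo 5, and a miRNA was counted as apart at a fold of 2 with Ctl-Exo 5 outside the NXT-Exo range. With 1 Ctl-Exo library no p-value belongs to this description. Beside it stood the edgeR 4.0.16 quasi-likelihood test (TMM, filterByExpr) in R 4.3.3, with limma 3.58.1 (voom) and DESeq2 1.42.0 as alternatives. In ratios 0.5 read was added to both sides. Python 3.11.15, numpy 2.4.6, pandas 2.3.3, scipy 1.17.1, matplotlib 3.10.9 and RNAfold 2.7.2 were also used. Libraries differed by a chi-square per degree of freedom of 38.1 to 272.3, so none was a duplicate.

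The members and lists were chosen with earlier results of these data known. The text names the members, all sequences of the same hairpins, the 3 miRNAs most like each of miR-486, miR-451-5p and miR-144-3p, sharers of bases 2 to 7, the red cell list, miR-23a-3p and the marker lists. Hairpins, mature sequences and neighbouring genes are from RefSeq (GRCr8). The edgeR fit and the fold rule were tested on 10 simulated tables of 865 miRNAs, with 200 changed 4-fold between 5 libraries and 1. The edgeR fit recovered 57.1% of the changed miRNAs that passed its count filter. The fold rule recovered 64.8% of all 200, a different denominator, and also called 10.3% of the unchanged miRNAs. The lone simulated library was drawn with the spread of the NXT-Exo libraries, so the assumption made for Ctl-Exo 5 is built into these rates. The members differed by less than 4-fold, so the rates do not show how often differences of their size would be found. The alternatives were other scalings, pseudocounts of 0.1 and 10 CPM, other summaries and filters, and leaving out each NXT-Exo library. Spread and lists without NXT-Exo 1 were added after the data had been seen.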

Additional observations from a re-analysis of the deposited data

Results flagged for a closer look

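In 23 groups of 5 NXT-Exo values (levels and ratios of the erythroid sequences), the highest or lowest library was compared with its nearest neighbour by Dixon's criterion, which chance exceeds in about 1 of 20 groups, and 2 exceeded it. For miR-451-y the gap of NXT-Exo 5 to the others was 1.0 of the whole range, since the sequence had 5 reads there and 0 in the other NXT-Exo libraries, close to the detection limit of 3 reads. For the ratio of miR-486 to miR-486-y the gap of NXT-Exo 2 was 0.760 of the range (critical value 0.71), with a ratio of 301 there against 225 to 243 in the other NXT-Exo libraries.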

How the results depend on the processing

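The level differences of the 5 erythroid miRNAs moved by less than 1 SD of the NXT-Exo libraries under the 14 alternatives run for each. This margin is wide, since leaving out 1 of 5 libraries can hardly move their mean by 1 SD. The ranges on the log2 scale were -0.05 to 0.12 for miR-486, -0.11 to 0.15 for miR-451-5p, -0.03 to 0.28 for miR-144-3p, -0.29 to -0.03 for miR-144-5p and -1.02 to -0.67 for miR-451-3p. The sign turned without NXT-Exo replicate 2 or 3 for miR-486, without replicate 4 for miR-451-5p and without replicate 3 for miR-144-3p, all values near 0. Without NXT-Exo replicate 4, miR-451-3p passed the fold of 2 (-1.02). Over all 6 libraries the limma estimate for miR-451-3p also passed it (-1.04), while those of edgeR (-0.95) and DESeq2 (-0.96) did not. The ratio of the miR-451 arms was 0.92 to 1.04 and that of the miR-144 arms -0.30 to -0.23 when each NXT-Exo library was left out, and miR-451-x was -1.12 with a pseudocount of 10 CPM. The median of all miRNAs, 0.16, was 0.15 to 0.23 under other scalings, 0.05 with a pseudocount of 10 CPM and 0.0 when NXT-Exo was summarised by its median.

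The count of 99 miRNAs apart by a fold of 2 (46 higher, 53 lower) fell to 4 (3 higher) with a pseudocount of 10 CPM and to 30 (22 higher) among miRNAs averaging 10 reads or more, which tests fewer miRNAs, and was 166 (113 higher) with no condition on the range. Leaving out each NXT-Exo library gave 101 to 123. The 8 edgeR fits called 0 miRNAs, with 20 to 46 at an unadjusted p below 0.05, and gave an adjusted p of 0.554 to 0.893 for miR-451-3p. DESeq2 gave 0.982 for it and limma 0.976. No paired analysis was made, because the labels name no pairs of NXT-Exo and Ctl-Exo libraries. Depth limits miR-451-y, miR-144-x and miR-144-y most (0 to 12 reads per library), then miR-451-x and miR-451-3p (9 to 70). The use of a single Ctl-Exo library leaves the spread of that group unmeasured here.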
